A study of Homo sapiens with 4 samples.

Results

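The genes described here are the 6 subunits of prefoldin (PFDN1, PFDN2, PFDN4, PFDN5, PFDN6 and VBP1) and 4 of the tubulin folding cofactors (TBCA, TBCB, TBCC and TBCD). These 10 genes were taken by symbol from the 57979 gene rows of the deposited table, where each symbol stood on 1 row. Polyadenylated RNA was sequenced from 4 samples labelled HepG2, a human liver cancer cell line grown in DMEM with serum. Of these, 2 libraries were labelled wild type, and 2 were labelled TXNDC9 knockout, from cells edited with CRISPR-Cas9. No drug or time course distinguished the groups. For protein blots of HepG2, the study sorted cells by FACS for infection with Cas9 and either a guide against TXNDC9 or the vector alone. Whether the sequenced RNA came from these sorted cells is not given in the sources used here. Nothing in the labels says that replicates came from separate cultures, so p-values measure only the spread between these libraries.

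Prefoldin is a jellyfish-shaped chaperone that captures actin and tubulin chains as they leave the ribosome and hands them to the chaperonin TRiC, also called CCT. Its hexamer is built from 2 alpha-type subunits, PFDN5 and VBP1, and 4 beta-type subunits, PFDN1, PFDN2, PFDN4 and PFDN6. Tubulin released by TRiC is not yet able to polymerise, and the tubulin cofactors then assemble it into the alpha-beta heterodimer. TXNDC9, the targeted gene, encodes a phosducin-like protein that binds TRiC, and the study compared knockout with wild-type cells to learn what TXNDC9 does in liver cancer cells. Here that comparison is described for the genes whose products act just before and just after TRiC.

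Values were FPKM, the fragments assigned to a gene after division by transcript length and library size, so levels could be compared between genes; comparisons between libraries also depend on how they were scaled. FPKM values are not counts, the depth of each library is unknown, and no detection limit can be given. Changes were tested with limma on log2(FPKM + 0.1) in 13246 genes, those averaging over 1 FPKM, with Benjamini-Hochberg adjustment over all of them. A gene was called lower or higher at an adjusted p under 0.01 and a change of at least 2-fold. With 2 libraries on each side, exact permutation gives no p smaller than 0.333, and the adjusted p-values therefore draw on limma's pooled spread across genes.

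Several facts about the whole libraries touch the results below. The targeted gene, TXNDC9, had 35.1 and 37.3 FPKM in wild-type libraries, against 21.9 and 27.6 FPKM in the knockout. The log2 fold change of TXNDC9 was −0.55 (SE 0.14, adjusted p = 0.0145 from limma) and turned to 0.12 when the libraries were rescaled to an equal sum (TPM). The data went against the HepG2 label: all 8 liver markers examined, among them ALB, AFP, APOA1 and HNF4A, stood between 0 and 0.449 FPKM in every library. APOA1 was listed at 0 in all 4 libraries, and the summed level of the 8 markers was 0.351 and 0.716 FPKM in wild-type libraries, against 0.0479 and 0.121 FPKM in the knockout. Of 8 markers of leukocytes, endothelial cells and fibroblasts, 5 were tested. In the knockout libraries 2 of them were called higher, against 14.2% of all tested genes. These were CDH5 (0.751 and 1.07 against 4.26 and 3.14 FPKM) and PDGFRB (1.08 and 0.735 against 3.0 and 2.62 FPKM). The other tested markers were not called, with log2 fold changes of −0.49 for COL1A1, −0.70 for COL3A1 and 0.58 for CD68. The summed level of these 8 non-liver markers was 56.2 and 54.1 FPKM in wild-type libraries, against 47.4 and 43.7 FPKM in the knockout. Most of it came from COL1A1 and COL3A1, and CD3E was listed at 0. The part of these markers in the results was not tested. Summed over all genes, the libraries held 805816 and 971102 FPKM (wild-type) and 535973 and 568279.5 FPKM (knockout).

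The start regions of the prefoldin genes are shown because 4 of them match the same 8-letter pattern, with 1 letter left free, at the translation start. These 4 span the whole range of change among the subunits. RefSeq promoters on GRCh38.p14, the patch release of the hg38 build, were found for 9 of the 10 genes, with PFDN2 the exception, and reach from 250 bases upstream to 50 bases downstream of the start site. Each line below gives 30 bases on the gene's own strand, with the match to AANATGGC, in which N is any base, in capitals.
PFDN1, chr5:140303058-140303087, minus strand: tacagtgcaccAAGATGGCcgcccccgtgg
PFDN4, chr20:54208087-54208116, plus strand: agtccagtcccAAGATGGCggccaccatga
PFDN5, chr12:53295554-53295583, plus strand: tcggccttcccAACATGGCgcagtctatta
VBP1, chrX:155216469-155216498, plus strand: ctcgcatccccAAGATGGCggccgttaagg
The matches began 25, 11, 23 and 20 bases after the start sites of PFDN1, PFDN4, PFDN5 and VBP1. In all 4 the ATG of the annotated canonical coding sequence lay within the match, beginning at its 4th base. The letters, which contain the core that the zinc finger factor YY1 is known to recognise, were chosen after the sequences had been seen. Searched on both strands and at any position, AANATGGC occurred in 6.58% of 35116 RefSeq promoters of the same length, which is not a rate at translation starts. A match is a description of the letters and shows no binding. PFDN4 was among the called genes, PFDN5 too, PFDN1 was not, and VBP1 had overlapping levels in the groups, so the letters occurred in genes with and without a call.

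The promoters of PFDN4 and VBP1, the subunits with the largest and the smallest change, are shown in full upstream of their start sites, each 250 bases long and outside every annotated exon. Capitals mark CCAAT or its reverse complement ATTGG, the box known to bind the factor NF-Y.
PFDN4, chr20:54207837-54208086, plus strand: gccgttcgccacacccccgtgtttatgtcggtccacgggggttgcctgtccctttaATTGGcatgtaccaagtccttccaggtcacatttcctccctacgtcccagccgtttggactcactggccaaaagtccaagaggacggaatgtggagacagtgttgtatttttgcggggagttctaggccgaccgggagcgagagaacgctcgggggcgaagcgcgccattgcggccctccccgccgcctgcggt
VBP1, chrX:155216210-155216459, plus strand: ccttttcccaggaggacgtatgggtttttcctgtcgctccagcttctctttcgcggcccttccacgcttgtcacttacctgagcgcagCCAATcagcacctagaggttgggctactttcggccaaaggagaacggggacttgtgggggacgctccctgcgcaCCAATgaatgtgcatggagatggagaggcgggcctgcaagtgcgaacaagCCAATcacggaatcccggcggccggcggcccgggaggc
Base composition was close, with 60.8% G or C and 21 CpG dinucleotides in PFDN4 and 61.2% and 18 in VBP1. VBP1 held 3 matches, 162, 88 and 38 bases before the start site, and PFDN4 held 1 on the opposite strand, 194 bases before it. On both strands of the whole promoter CCAAT was found in 4 of the 9 genes (PFDN4, VBP1, TBCB and TBCC) and in 34.6% of all promoters; this search too was added after the sequences had been seen. CACGTG, the E-box that MYC and MAX are known to bind, was in none (0) of the 9 promoters and in 7.26% of all, which says only that these letters are not in these windows. GCGCATGC was in 1 of the 9, that of TBCA, with overlapping matches on both strands that began 24 and 22 bases before its start site, and in 3.05% of all.
TBCA, chr5:77776345-77776374, minus strand: ccgcgcagcctGCGCATGCgcgccggcgac

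All 10 genes were well expressed, and 9 of them had a mean level above that of 80% of the tested genes. In wild-type libraries PFDN5, at 791 and 1010.3 FPKM, was the most abundant, followed by TBCA at 342 and 418 FPKM. PFDN2 (203 and 286 FPKM) and PFDN6 (198 and 258 FPKM) came next and overlapped. PFDN4 and TBCB, at 115 to 163 and 114 to 145 FPKM, overlapped as well. PFDN1, VBP1 and TBCD lay together between 52.4 and 77.4 FPKM, and TBCC was lowest at 30.8 and 32 FPKM. The order was different in the knockout libraries. PFDN5 and TBCA still led, but PFDN6 then stood clear of PFDN2, and VBP1, at 62.7 and 66.1 FPKM, stood above both TBCB and PFDN4. TBCD and TBCC stayed lowest, and of the neighbours in this second order, PFDN4 and PFDN1 alone overlapped. Both orders are on FPKM and were not corrected for the trend of change with transcript length and GC content given below.

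**Figure D1:**
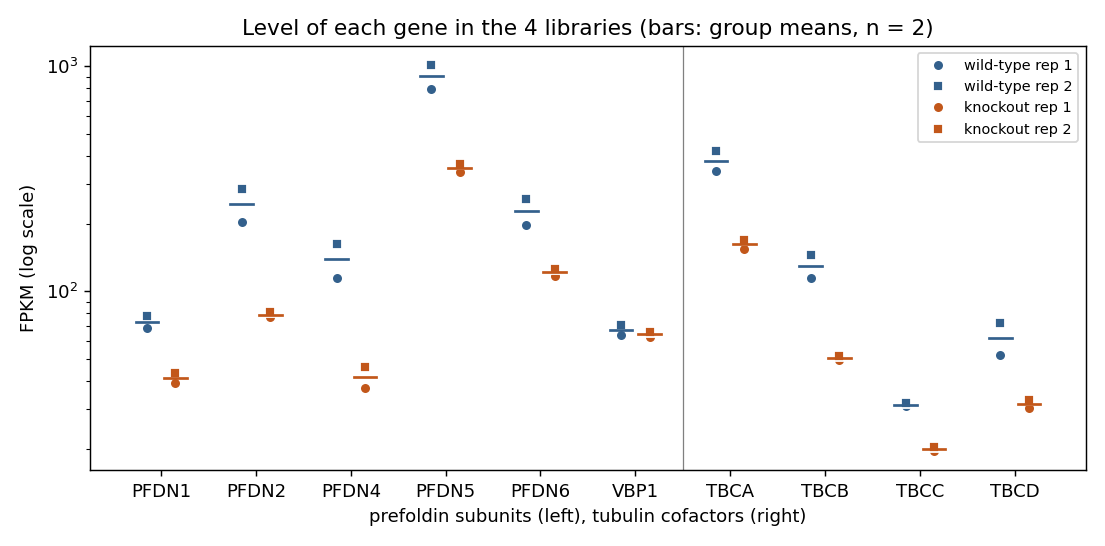
Level of each gene in FPKM (log scale) in the 2 wild-type and 2 TXNDC9 knockout libraries; points are single libraries and bars are group means (n = 2). Both knockout points lie below both wild-type points for 9 genes, and only for VBP1 do the groups overlap.

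Of the 10 genes, 5 were called lower in the knockout libraries and 0 higher. Among all tested genes, 15.3% were called lower and 14.2% higher. Without the 2-fold limit, 9 of the 10 genes were lower at an adjusted p under 0.01, against 27.1% of all tested genes. Both knockout values lay below both wild-type values in 9 of the 10 genes, against 45.9% of all tested genes, and above them in 0, against 40.1%. The median log2 fold change was −1.09 over the 10 genes and −0.09 over all tested genes, a difference of −1.0. Rescaling to TPM shifts all genes nearly alike, so it leaves this difference as it was. After each library was corrected for transcript length and GC content, as described below, the difference was −0.60. Calls depended on which library was left out, but such fits keep 1 library in a group, so their effect sizes alone are given. A fit without a knockout replicate takes its within-group spread from the wild-type libraries alone. The median log2 fold change of the 10 genes was −1.28 without wild-type replicate 1 and −0.91 without wild-type replicate 2. It was −1.02 without knockout replicate 1 and −1.15 without knockout replicate 2. In RNA from whole cultures, fewer cells with a transcript and less of it per cell cannot be told apart.

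PFDN4 and PFDN2, both beta-type subunits, had the largest changes. PFDN4 (ENSG00000101132; chromosome 20, 54208087 to 54228052, 4 exons) was at 115 and 163 FPKM in wild-type libraries, against 37.2 and 46.4 FPKM in the knockout. Its lowest wild-type value was well above its highest knockout value, and the group means, 139 ± 34.2 and 41.8 ± 6.52 FPKM (SD, n = 2 each), were 3.32-fold apart. The log2 fold change was −1.72 (SE 0.20, 95% interval −2.22 to −1.21, adjusted p = 0.00108 from limma), lower than that of all but 3.70% of the tested genes. PFDN4 was called under more settings than any other of the 10 genes: it was the single one still called after rescaling to TPM, at −1.04.

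PFDN2 (ENSG00000143256; chromosome 1, 161100556 to 161118055, 4 exons) also belongs to a second assembly, the R2TP and prefoldin-like complex. It stood at 203 and 286 FPKM in wild-type libraries, against 76.7 and 81.2 FPKM in the knockout. The knockout values were close to each other and far below the wild-type ones, which themselves differed widely. PFDN2 fell by 1.61 on the log2 scale (SE 0.18, 95% interval −2.06 to −1.15, adjusted p = 0.000985 from limma), a 3.10-fold difference in means.

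PFDN6, a beta-type subunit that likewise sits in both assemblies, began level with PFDN2 in wild-type cells. PFDN6 (ENSG00000204220; chromosome 6, 33289302 to 33298401, 4 exons) measured 198 and 258 FPKM against 117 and 126 FPKM. Its groups did not overlap, and its log2 fold change of −0.90 (SE 0.16, adjusted p = 0.00419 from limma) was short of 2-fold. The ratio of PFDN2 to PFDN6 was therefore 1.02 and 1.11 in wild-type and 0.655 and 0.646 in knockout libraries, a measure that library scaling does not touch. The exact permutation p for this ratio, 0.333, is the smallest that 4 libraries can give. PFDN6 overlaps RGL2 on the opposite strand, and RGL2 was far lower, at 9.98 to 11.6 FPKM.

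PFDN1 (ENSG00000113068; chromosome 5, 140245035 to 140303113, 4 exons) was the least abundant beta-type subunit in wild-type libraries, at 68.9 and 77.4 FPKM. In knockout libraries it was at 39.3 and 43.5 FPKM. The groups were apart, with a log2 fold change of −0.82 (SE 0.12, adjusted p = 0.00191 from limma), again under 2-fold. Because PFDN4 changed more, the ratio of PFDN4 to PFDN1 was 1.67 and 2.11 in wild-type but 0.946 and 1.07 in knockout libraries. The gene body of PFDN1 overlaps CYSTM1 on the opposite strand with 0 shared bases between canonical exons.

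The alpha-type subunits differed from each other in level and in change. PFDN5 (ENSG00000123349; chromosome 12, 53295291 to 53299452, 6 exons), also known as the MYC-binding protein MM-1, was at 791 and 1010.3 FPKM in wild-type libraries, against 338 and 369 FPKM in the knockout. Means were 901 ± 155 and 354 ± 21.8 FPKM (SD, n = 2 each), and the log2 fold change was −1.34 (SE 0.17, 95% interval −1.77 to −0.91, adjusted p = 0.00143 from limma). The call was lost with no filter on low values, at an adjusted p of 0.0108 from limma. The canonical transcript shares 493 exonic bases with the long noncoding gene ENSG00000288663, not analysed here, so reads from the 2 cannot be told apart.

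VBP1 (ENSG00000155959; chromosome X, 155197007 to 155239841, 6 exons), named for its binding to the VHL tumour suppressor protein, was at 64.3 and 70.8 FPKM in wild-type libraries, against 62.7 and 66.1 FPKM in the knockout. Its groups overlapped, the log2 fold change was −0.07 (SE 0.11, adjusted p = 0.599 from limma), and the 95% interval from −0.34 to 0.20 does not reach the 2-fold limit. The sign of this value depended on scaling: on TPM it was 0.61, and without wild-type replicate 2 it was 0.0015. Measured from the median of all tested genes, VBP1 stood at 0.02 on FPKM and 0.03 on TPM, with 50.7% of the tested genes below it. VBP1 thus changed like the middle gene of the table, while PFDN5 stood at −1.25 from that median on FPKM and −1.24 on TPM. Rescaling shifts all genes nearly alike, so these distances match by construction.

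**Figure D2:**
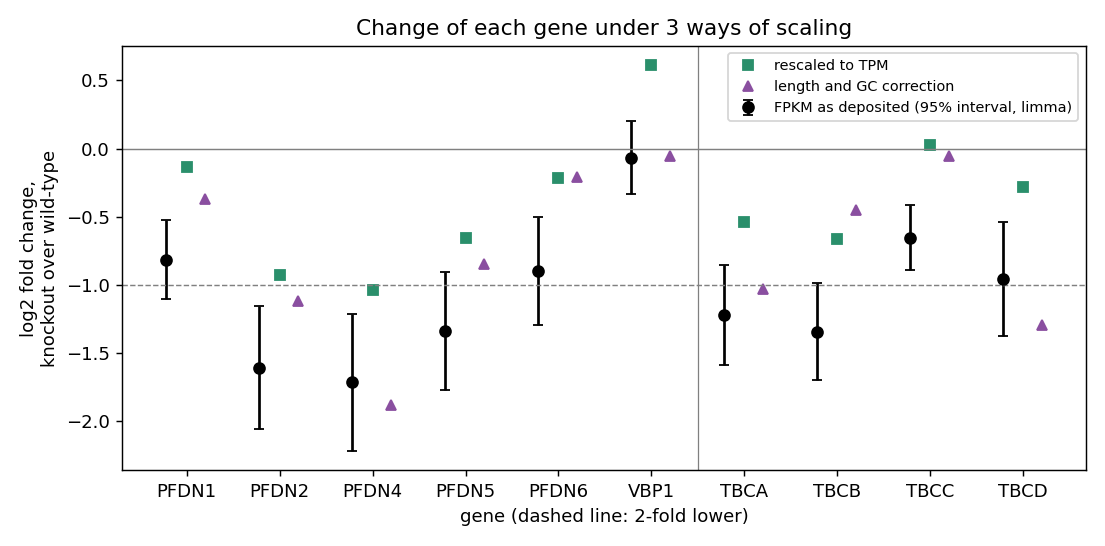
Log2 fold change of each gene (knockout over wild-type) on FPKM as deposited (black, with 95% interval from limma), after rescaling to TPM (green squares) and after correction for transcript length and GC content (purple triangles); the dashed line is 2-fold lower. PFDN4 lies below the dashed line in all 3, and TPM lifts every gene by nearly the same amount.

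The share of each subunit in the summed prefoldin FPKM of a library does not depend on how libraries are scaled. It was not corrected for the trend of change with transcript length and GC content given below. The subunits run from 596 nt (PFDN5) to 1616 nt (VBP1). The sum itself was 1439 and 1866 FPKM in wild-type libraries, against 671 and 732 FPKM in the knockout. PFDN5 held more than any other subunit in every library, at 55.0% and 54.1% in wild-type and 50.4% in both knockout libraries. VBP1 moved most in relative terms, from 4.47% and 3.80% to 9.34% and 9.03%. PFDN6 went from 13.7% and 13.8% to 17.4% and 17.2%, and PFDN1 from 4.79% and 4.15% to 5.85% and 5.95%. Shares of PFDN2 and PFDN4 were smaller in the knockout libraries: PFDN2 had 14.1% and 15.3% against 11.4% and 11.1%, and PFDN4 had 7.97% and 8.74% against 5.53% and 6.33%. For none of the 6 subunits did the shares of the groups overlap. On FPKM, an unlike measure, both knockout values lay below both wild-type values in 45.9% of all tested genes and above them in 40.1%. Most tested genes thus had groups apart, and shares of the same sum depend on each other. The lack of overlap is therefore not particular to these subunits.

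The hexamer holds alpha-type and beta-type subunits in a fixed proportion, and the transcripts can be set beside it. Summed alpha-type over summed beta-type FPKM was 1.46 and 1.38 in wild-type and 1.48 and 1.47 in knockout libraries. Within the alpha type the balance was different, since PFDN5 exceeded VBP1 by 12.3 and 14.3 times in wild-type and by 5.40 and 5.59 times in knockout libraries. VBP1 stood at 0.338 and 0.285 of the geometric mean of the other 5 subunits in wild-type and at 0.738 and 0.698 in knockout libraries, a log2 difference of 1.21 (exact permutation p = 0.333, the smallest that 4 libraries can give). PFDN5 was at 5.93 and 5.78 times the geometric mean of the beta type in wild-type and at 5.62 and 5.48 times in knockout libraries. This difference was smaller, at −0.08 on the log2 scale, with groups that did not overlap. These ratios were not corrected for transcript length and GC content. With that correction the log2 fold changes were −0.84 for PFDN5, −0.06 for VBP1, and from −1.89 (PFDN4) to −0.21 (PFDN6) for the beta type.

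**Figure D3:**
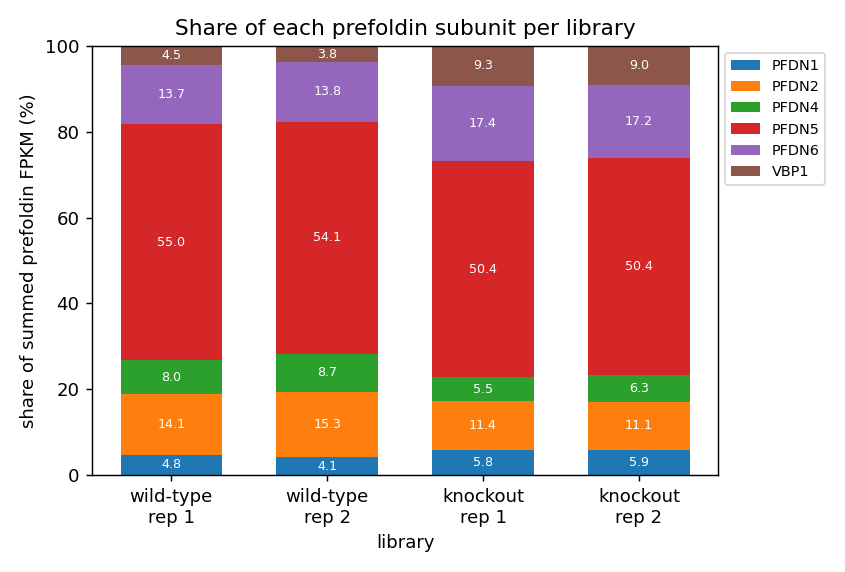
Share of each prefoldin subunit in the summed FPKM of the 6 subunits, in percent, for each of the 4 libraries. The VBP1 band at the top is 3.80% to 4.47% in wild-type and 9.03% to 9.34% in knockout libraries, while PFDN5 holds 50.4% to 55.0% throughout.

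Among the cofactors, TBCA and TBCB take up newly released tubulin, TBCA the beta chain and TBCB the alpha chain. On FPKM as deposited these were the cofactors called lower, and after the length and GC correction TBCA and TBCD were. TBCA (ENSG00000171530; chromosome 5, 77691166 to 77868780, 4 exons) was at 342 and 418 FPKM in wild-type libraries, against 155 and 169.9 FPKM in the knockout. The values were well apart, and the log2 fold change was −1.22 (SE 0.15, 95% interval −1.59 to −0.85, adjusted p = 0.00118 from limma). TBCA has 3 named pseudogene copies (TBCAP1, TBCAP2 and TBCAP3), each listed at 0 in all libraries, so how reads that match both were counted is uncertain.

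TBCB (ENSG00000105254; chromosome 19, 36114289 to 36125947, 6 exons) was at 114 and 145 FPKM in wild-type libraries, against 49.5 and 51.7 FPKM in the knockout. The knockout libraries almost coincided, and TBCB fell by 1.34 on the log2 scale (SE 0.14, 95% interval −1.70 to −0.99, adjusted p = 0.000834 from limma). TBCB overlaps POLR2I on the opposite strand, with 0 shared bases between canonical exons. POLR2I was at 104 and 156 FPKM in wild-type libraries, against 32.7 and 27.5 FPKM in the knockout, and whether counting used strand is not given in the sources used here. TBCA exceeded TBCB by 3.0 and 2.88 times in wild-type and by 3.13 and 3.29 times in knockout libraries. That relation turned once libraries were corrected for transcript length and GC content, under which TBCA was at −1.03 and TBCB at −0.45.

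TBCC and TBCD act later, TBCD holding the beta chain in the joint complex and TBCC triggering release of the heterodimer. TBCD (ENSG00000141556; chromosome 17, 82752042 to 82945914) has the longest transcript of the 10 genes, 7159 nt over 39 exons. It was at 52.4 and 72.1 FPKM in wild-type libraries, against 30.2 and 33.0 FPKM in the knockout. Its groups were apart, with a log2 fold change of −0.96 (SE 0.17, 95% interval −1.38 to −0.54, adjusted p = 0.00410 from limma), close to but short of 2-fold. Without wild-type replicate 1 the change of TBCD was −1.19 and that of PFDN6 −1.09. Without wild-type replicate 2 they were −0.73 and −0.70. TBCD shares 1601 bases of canonical exons with B3GNTL1 on the opposite strand, which was at 7.84 and 13.7 FPKM in wild-type libraries, against 5.02 and 5.62 FPKM in the knockout.

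TBCC (ENSG00000124659; chromosome 6, 42744498 to 42746103, 1 exon) was the least abundant of the 10 genes and the one with the closest replicates. It was at 30.8 and 32 FPKM in wild-type libraries, against 19.6 and 20.3 FPKM in the knockout. The log2 fold change was −0.65 (SE 0.10, 95% interval −0.89 to −0.42, adjusted p = 0.00211 from limma), and on TPM it turned to 0.02 (adjusted p = 0.880 from limma). Measured from the median of all tested genes it was −0.57 on FPKM and −0.56 on TPM, a distance that rescaling leaves nearly unchanged. The share of TBCC in the summed FPKM of the 4 cofactors was 5.72% and 4.80% in wild-type and 7.70% and 7.38% in knockout libraries, while TBCA held 60.9% to 63.4% in all.

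Genes that act beside the cofactors did not share a direction. The list of other tubulin cofactor genes held 4 genes, of which 1 was called lower, 1 higher and 2 were not called. Their median log2 fold change was −0.03. Of all tested genes 15.3% were called lower and 14.2% higher, and calls in so few genes cannot be told from these shares. ARL2, the small GTPase that binds TBCD, was at 151 and 194 FPKM in wild-type libraries, against 57.8 and 65.3 FPKM in the knockout. It fell by 1.48 on the log2 scale (SE 0.16, adjusted p = 0.000834 from limma). TBCEL, a TBCE-like protein known to destabilise tubulin, was at 2.86 and 2.33 FPKM in wild-type libraries, against 5.14 and 5.68 FPKM in the knockout, a rise of 1.04 (SE 0.17, adjusted p = 0.00285 from limma) at far lower levels. TBCE, the cofactor that binds alpha-tubulin, was at 31.4 and 32.4 against 28.6 and 26.3 FPKM, with a log2 fold change of −0.22 (adjusted p = 0.106 from limma). TBCCD1, a TBCC-like protein of the centrosome, was at 6.68 and 6.76 against 7.38 and 7.58 FPKM, with a log2 fold change of 0.15 (adjusted p = 0.255 from limma). Correction for transcript length and GC content ended the calls of both ARL2 (−0.52) and TBCEL (0.27). ARL2 was also not called on TPM (−0.80), where TBCE turned to 0.46. The call of TBCEL was lost as well with a pseudocount of 1 (0.84) and after centring on the library median (0.89). It was also lost with no filter on low values (adjusted p = 0.0141 from limma). Without wild-type replicate 2 the log2 fold change of TBCEL was 0.89.

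The prefoldin-like and R2TP genes encode the assembly that PFDN2 and PFDN6 also join, which helps build RNA polymerases and other large complexes. All 9 were tested, 3 were called lower (15.3% of all tested genes were), 0 were called higher and 6 were not called. In 9 of 9 both knockout values lay below both wild-type values, against 45.9% of all tested genes, and the median log2 fold change was −0.84. UXT, a prefoldin-like subunit, was at 348 and 443 FPKM in wild-type libraries, against 142 and 162 FPKM in the knockout, a fall of 1.37 on the log2 scale. PIH1D1, an R2TP adaptor, was at 89.7 and 106 against 40.8 and 44.2 FPKM, and RUVBL2, an ATPase of R2TP, at 216 and 218 against 91.3 and 94.5 FPKM. The log2 fold changes of PIH1D1 and RUVBL2 were −1.20 and −1.22, with adjusted p-values of 0.000810 and 0.000590 from limma. The genes not called lay in separate ranges: RUVBL1, POLR2E and PDRG1 had values of −0.85, −0.84 and −0.76, and URI1, RPAP3 and WDR92 had −0.19, −0.19 and −0.20. On TPM these last 3 turned to 0.48. UXT, PIH1D1 and RUVBL2 were no longer called on TPM (−0.69, −0.52 and −0.54) or after correction for length and GC content (−0.79, −0.41 and −0.34).

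On either side of prefoldin stand its partner chaperonin and the proteins it helps to fold. Of 8 chaperonin subunits tested, 1 was called lower (CCT7) and 7 were not called, a share near the 15.3% of all tested genes. Their log2 fold changes ran from −1.10 to −0.07, with a median of −0.44. In 8 of 8 both knockout values lay below both wild-type values, against 45.9% of all tested genes. None of the 3 phosducin-like genes, TXNDC9 among them, was called, and their log2 fold changes ran from −0.91 to 0.56. In 2 of these 3 genes both knockout values lay below both wild-type values, as in 45.9% of all tested genes, and in 1 above. Of 12 tubulin and actin genes tested, 4 were called lower, against 15.3% of all tested genes, and 0 higher. Their log2 fold changes ran from −1.94 to 0.33, with a median of −0.73. Both knockout values lay below both wild-type values in 11 of these 12, against 45.9% of all tested genes, and above them in 1. Either on TPM or after the length and GC correction, 0 chaperonin genes and 1 tubulin or actin gene (TUBB3) were called lower; on TPM TUBA1B (1.01) and the phosducin-like gene PDCL (1.24) were called higher, and after centring on the library median PDCL3 was called lower (−1.05). These 4 genes were named after their values had been seen.

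**Figure D4:**
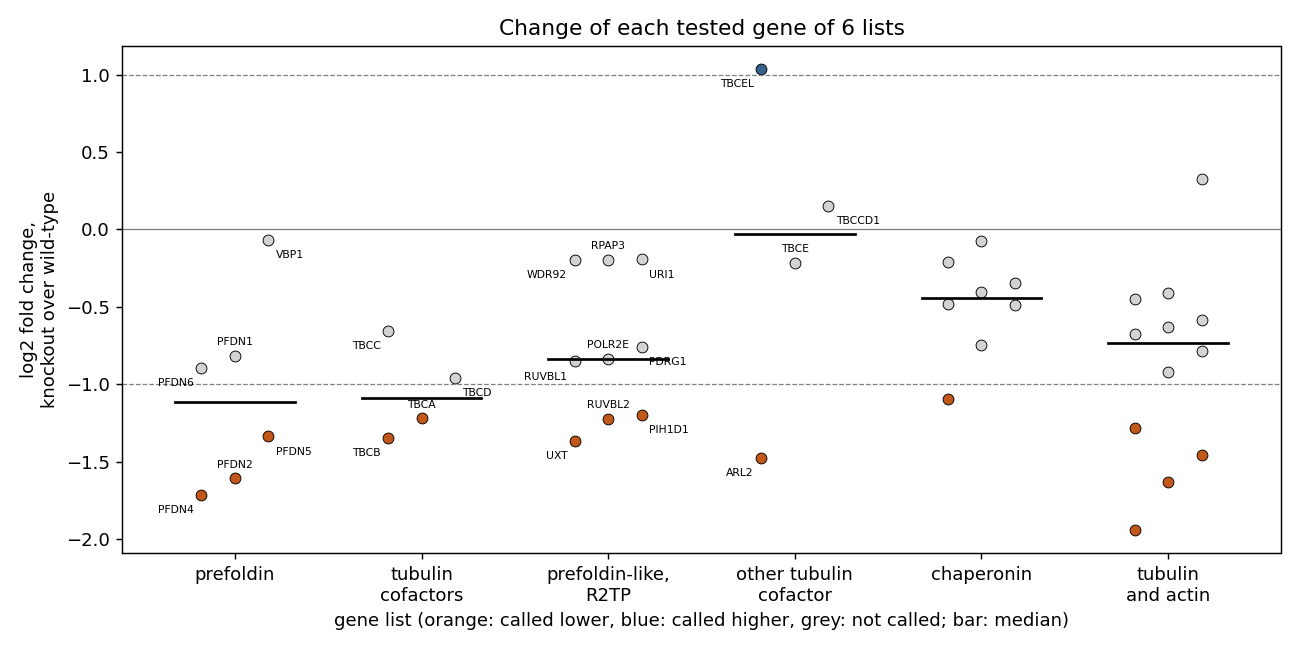
Log2 fold change (knockout over wild-type) of each tested gene in 6 lists; orange points were called lower, blue higher and grey not called, bars are list medians and dashed lines are 2-fold. The medians are −1.12 for the prefoldin subunits and −1.09 for the 4 cofactors, −0.84 for the prefoldin-like and R2TP genes, −0.03 for the other tubulin cofactor genes, −0.44 for the chaperonin and −0.73 for tubulin and actin.

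Transcript length moved with the changes over the whole table, and most of the 10 genes are short. Across the 13112 tested genes with a known length, Spearman's correlation of the log2 fold change was 0.495 with canonical transcript length and −0.462 with GC content, and genes are not independent replicates. Genes called lower had a median length of 1433 nt, those called higher 5546 nt and all tested genes 2866.5 nt. Of the 10 genes, 9 were shorter than that last median, and their own median was 1108.5 nt. PFDN5 and PFDN2, at 596 and 598 nt, were the shortest, followed by TBCA at 661 nt, PFDN6 at 734 nt and TBCB at 987 nt. Within groups, too, the ratio of wild-type replicate 2 to replicate 1 had a Spearman correlation of −0.325 with length, against −0.0625 for the knockout replicates.

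After each library was corrected for length and GC content by a loess curve, 4 of the 10 genes were called lower, against 7.39% of the 13112 genes tested with the correction. The genes with the largest corrected changes were PFDN4 at −1.89, TBCD at −1.29, PFDN2 at −1.12 and TBCA at −1.03, and these are the 4. PFDN4, of 1230 nt and 30.7% GC, was no nearer 0 than before. TBCD, the long transcript, gained its call. PFDN5 (−0.84, adjusted p = 0.00152 from limma) and TBCB (−0.45, adjusted p = 0.00568 from limma) lost theirs by size. The others came closer to 0, with PFDN1 at −0.37, PFDN6 at −0.21, and VBP1 and TBCC both at −0.06. The corrected median of the 10 genes was −0.65, against −0.05 for all tested genes.

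**Figure D5:**
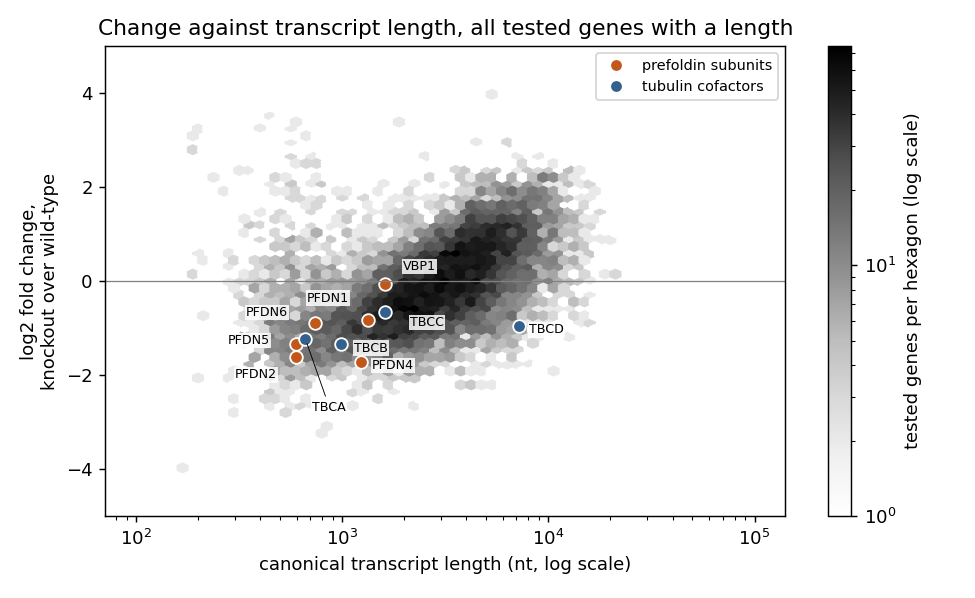
Log2 fold change (knockout over wild-type) against canonical transcript length in nt (log scale) for the 13112 tested genes with a length, shaded by number of genes, with the 6 prefoldin subunits (orange) and 4 cofactors (blue) marked. Short transcripts lie lower on the whole, and 9 of the 10 genes are shorter than the median of 2866.5 nt, while TBCD lies below the main body of long transcripts.

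Over the 4 libraries, the tested genes whose profile lay closest to the mean prefoldin profile were ZRSR2, CNPY2 and GPATCH3, by Euclidean distance between log2(FPKM + 0.1) values centred on each gene's own mean. The distances were 0.0230, 0.0239 and 0.0264. ZRSR2, a splicing factor, was at 16.1 and 20.4 FPKM in wild-type libraries, against 8.19 and 9.18 FPKM in the knockout. CNPY2 was more abundant, at 206 and 262 against 104 and 117 FPKM, and GPATCH3 was at 15.1 and 19.5 against 7.86 and 8.56 FPKM. In these 3 genes, chosen for their profile, and in each of the 10, replicate 2 was higher than replicate 1 in both groups. So was the sum over all genes, at 971102 against 805816 FPKM in wild-type and 568279.5 against 535973 FPKM in knockout libraries. The share of all tested genes with this order was not counted.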

How the data were processed

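The authors mapped reads from 4 libraries to hg38 with TopHat2 and an Ensembl annotation, without searching for new junctions, and used Cuffdiff, of the Cufflinks suite, to make the deposited FPKM value of each gene in each library. Tool versions, the scaling between libraries and the handling of strand are not given in the sources used here. The authors' fold changes, p-values and q-values, also in the table, were not used. The table had 231916 lines, of which 57979 held values. Its identifiers stood on other lines than their symbols and were put back by their order, after which 10 of 10 members had the identifier of their symbol. Positions, lengths and GC content came from GENCODE release 44.

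Because depth is unknown and no read-sized steps were found (at most 4.53% of genes under 0.03 FPKM shared a ratio between libraries), no count test was run. limma 3.58.1 in R 4.3.3 compared log2(FPKM + 0.1), a scale that understates changes of low genes, with a prior variance trended on mean level and no covariates. The length and GC correction used a loess span of 0.3. Python 3.11.15 made the figures and read the sequences. The fits were tested on simulated data. The members, the gene lists and the tests were chosen with earlier results of these data known. The genes named are the members, the targeted gene, the prefoldin-like, R2TP and other cofactor genes, genes that overlap a member, cell type markers and the 3 nearest profiles; CCT7 was named after its value was seen. As alternatives, the pseudocount was 1 or 0.01, the filter was dropped or raised to an average above 5 FPKM, and further settings were TPM, centring on the median, no trend, the replicate block, an adjusted p under 0.05, the length and GC correction with and without the block, and leaving out each library.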

Additional observations from a re-analysis of the deposited data

How the results depend on the processing

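Of the 10 genes, 5 were called lower with a pseudocount of 1 or 0.01, an average FPKM above 5, no trend, an adjusted p under 0.05 or the replicate number as a block, the same calls for each of the 10. Rescaling to TPM left 1 called, PFDN4, and turned VBP1 to 0.61 and TBCC to 0.023; the shift is common to all genes, whose median went from −0.09 to 0.59, and 447 genes were then called lower and 4380 higher (90.7% of calls) against 2021 and 1885 (48.3%). Centring on the library median gave 7 called members and, over all genes, 2601 lower and 1452 higher (35.8% higher). The length and GC correction, with or without the block, gave 4 members, with 969 lower and 841 higher genes without the block and 975 and 841 with it. No filter on low values also gave 4. Leaving out each library gave between 0 and 7 called members, 7 without wild-type replicate 1 and 0 without either knockout replicate, where the lone library is assumed to vary like the others. Without either knockout replicate, the within-group spread came from the wild-type libraries alone. Over the fits that left out a library, VBP1 ranged from −0.14 to 0.0015. Both groups carry the replicate numbers 1 and 2, and the labels do not say whether same-numbered libraries were prepared together. Their deviations from the group means correlated at −0.0904 over genes, which cannot settle this. The block changed no member's call, but took the SE of PFDN4 from 0.203 to 0.115. With 2 libraries a group, outliers were not tested for, and without read counts no detection limit can be set.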
